A study of Mus musculus with 12 samples.

Results

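The Hox genes encode homeodomain transcription factors that lie in 4 clusters on different chromosomes, Hoxa, Hoxb, Hoxc and Hoxd. The genes described here were those represented on the array by a probe set with a single gene symbol of the form Hox, cluster letter and paralogue number. Of 39 such genes listed in mouse RefSeq, 33 were measured, among 18193 genes in all, and each was represented by its probe set with the highest mean signal over the 12 arrays. The other 6 had no single-symbol probe set among those used here.

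The study compared gene expression in 6 spontaneous lung tumours with that in 6 normal lungs. Both groups came from untreated B6C3F1 mice, the hybrid of C57BL/6 and C3H used in carcinogenicity testing, which were 2 years old in a National Toxicology Program bioassay. Each sample was measured on its own Affymetrix mouse array, and signal is given in the arbitrary linear units of the MAS5 algorithm. The labels name neither the sex of the mice nor whether each sample was a different mouse. The p-values below therefore describe only how far these samples scatter, which may be technical in part. The Y-linked transcript Eif2s3y was high in 4 tumours and 0 normal lungs. Differences between the groups may thus in part be differences of sex.

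Within a cluster the genes stand in the order of their paralogue numbers, and in the embryo low-numbered genes act towards the head and high-numbered genes towards the tail. Genes of the same number in different clusters are paralogues with similar homeodomains. In the developing mouse lung, Hox genes of the lower and middle numbers are expressed chiefly in the mesenchyme, and Hoxa5 is required there for normal airway and alveolar formation. Retinoic acid induces low-numbered Hox genes through its receptors, Polycomb proteins keep the clusters silent, trithorax proteins keep them active, and Meis and Pbx homeodomain proteins bind DNA together with Hox proteins.

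The RefSeq promoter windows of Hoxa3, Hoxa5 and Hoxb4 are shown first. These were the only windows available for the 8 Hox genes with signal above the array median. Retinoic acid receptors, which bind elements with the letters AGGTCA, are known regulators of this family, so these letters are marked. The other 5, Hoxb2, Hoxb3, Hoxb5, Hoxb6 and Hoxc6, had no window in the promoter set used here. Each window runs from 250 bases before to 50 bases after the annotated start, 5′ to 3′ on the gene's strand, in assembly GRCm38.p6. Capitals mark AGGTCA or its reverse complement TGACCT. Hoxa3 lies on the minus strand at chr6:52213018-52213317, Hoxa5 on the minus strand at chr6:52204538-52204837 and Hoxb4 on the plus strand at chr11:96318017-96318316.
Hoxa3: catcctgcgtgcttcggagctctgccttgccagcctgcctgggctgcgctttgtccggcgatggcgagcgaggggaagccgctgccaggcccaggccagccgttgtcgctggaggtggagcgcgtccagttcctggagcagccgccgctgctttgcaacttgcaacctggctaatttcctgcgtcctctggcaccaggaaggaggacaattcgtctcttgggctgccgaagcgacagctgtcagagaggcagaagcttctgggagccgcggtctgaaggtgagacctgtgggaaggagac
Hoxa5: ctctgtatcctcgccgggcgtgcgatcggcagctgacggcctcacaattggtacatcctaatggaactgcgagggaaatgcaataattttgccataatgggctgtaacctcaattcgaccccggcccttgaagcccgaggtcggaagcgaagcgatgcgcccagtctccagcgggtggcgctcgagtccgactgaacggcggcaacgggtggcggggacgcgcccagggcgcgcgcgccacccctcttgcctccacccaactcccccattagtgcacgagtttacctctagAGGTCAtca
Hoxb4: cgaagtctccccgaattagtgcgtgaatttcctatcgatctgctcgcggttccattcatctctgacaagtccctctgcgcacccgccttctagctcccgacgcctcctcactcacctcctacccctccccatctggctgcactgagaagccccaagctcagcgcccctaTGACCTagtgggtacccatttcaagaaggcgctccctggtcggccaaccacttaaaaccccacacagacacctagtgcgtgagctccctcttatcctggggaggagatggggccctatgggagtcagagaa

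The windows of Hoxa5 and Hoxb4 each held 1 copy of AGGTCA or TGACCT, and that of Hoxa3 held 0. These letters are only a part of a receptor element, so a match is not read as a full element. The windows contained 29 CpG dinucleotides in Hoxa5, 14 in Hoxb4 and 20 in Hoxa3. The table held 21 windows for 19 of the measured Hox genes, and AGGTCA on either strand was present in 28.6% of them, against 16.3% of all 32851 mouse windows. It was present in 3 of the 6 windows of Hox genes that were lower in tumours and in 3 of the 15 windows of the other Hox genes. Those 6 windows covered 6 of the 12 Hox genes that were lower, and Hoxb5 was not among them. The median number of CpG dinucleotides was 15 in Hox windows and 7 over all windows. The motif TGATTNAT, bound by Hox and Pbx proteins together, was searched on both strands. It was present in 2 of 21 Hox windows (9.52%) and in 3.22% of all windows. A match describes these letters only, and no binding was measured.

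Of the 33 Hox genes, 12 fell in tumours and 0 rose, and the other 21 did not pass the test (limma, Benjamini-Hochberg adjusted over 45037 probe sets, threshold 0.05), while 17.5% of all 18193 genes fell and 12.2% rose. At an unadjusted p under 0.05, 15 Hox genes were lower and 0 were higher. All 6 tumours lay below all 6 normal lungs for 10 Hox genes, as for 11.8% of all genes, and 0 Hox genes showed the opposite order, as 6.77% of all genes did. The median difference, tumour minus normal lung on the scale of log2(signal + 16), was -0.48 over the Hox genes and -0.08 over all genes. The difference was negative for 27 of the 33, a count that is likewise given without the share of all genes. In RNA from whole tissue, fewer cells of an expressing type and less RNA per cell cannot be told apart.

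A Hox gene was called bright where its mean signal in either group exceeded the mean of that group's array medians, which was 138 in tumours and 159 in normal lungs. The 8 bright genes were Hoxa3, Hoxa5, Hoxb2, Hoxb3, Hoxb4, Hoxb5, Hoxb6 and Hoxc6. In tumours 2 of them, Hoxa5 and Hoxb2, remained above the array median by their mean signal, and the other 6 did not. Among all 11262 genes above the median in normal lungs, 7.48% were at or below it in tumours. Those 6 counted as bright through normal lungs alone, so a lower mean in tumours follows from the definition in their case, and the count of bright genes that fell, 8 of 8, is given as a description beside 22.8% of all 12070 bright genes. Just inside the limit were Hoxc6, with a normal-lung mean of 164, and Hoxa3, with 224. Just outside it were Hoxa4 and Hoxa2, with normal-lung means of 136 and 119.6.

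**Figure D1:**
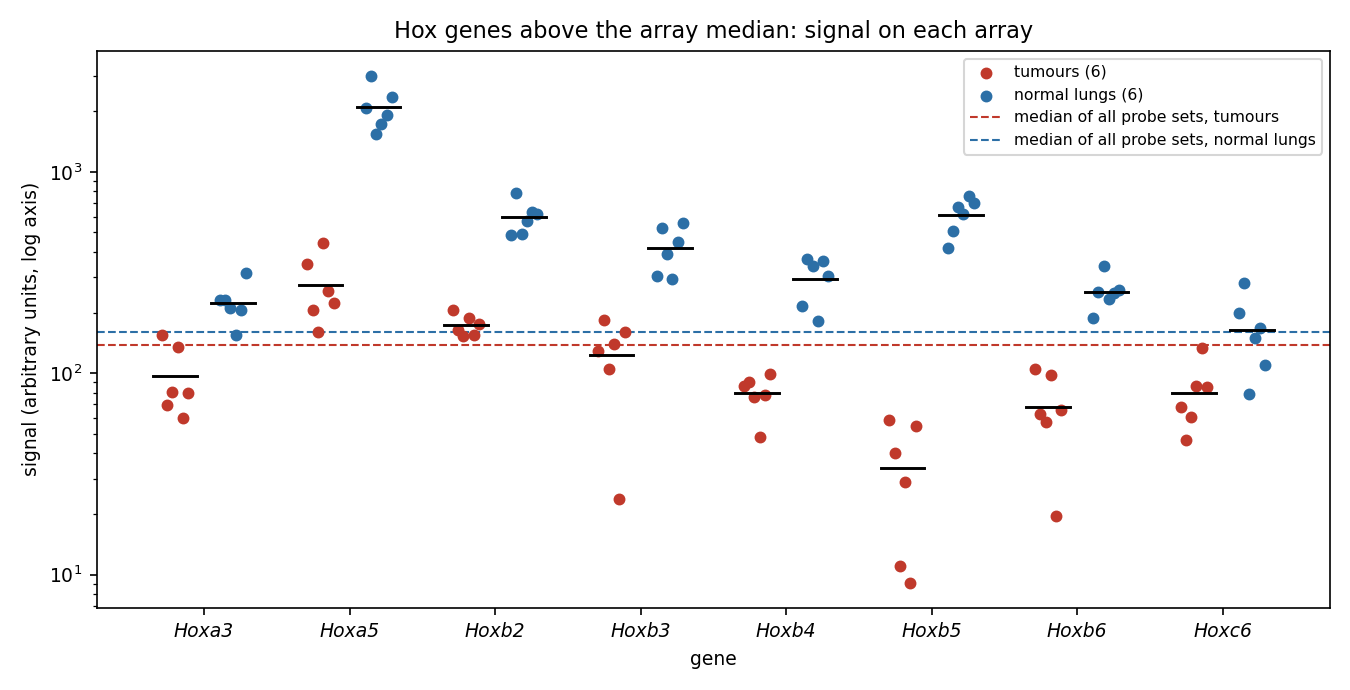
Signal of the 8 bright Hox genes on each of 12 arrays, on a log axis in arbitrary units, with tumours left of normal lungs for each gene, black bars at group means and dashed lines at the mean array median of each group. Every tumour lies below every normal lung for 7 of the 8 genes, beside 16.4% of all bright genes, and the groups overlap for Hoxc6. As 6 of the 8 counted as bright through normal lungs alone, the choice of genes favours such a gap.

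Paralogue group 5 held the genes with the 2 largest differences. Hoxa5, the paralogue required for lung development in the mouse, had signals with a lowest, median and highest value of 160.3, 239.6 and 442 in tumours, against 1537, 2004 and 2989 in normal lungs. Every tumour was far below every normal lung, and the difference was -2.91 ± 0.22 (SE, n = 6 each, limma adjusted p = 4.10e-07). The mean signal was 7.70 times as high in normal lungs as in tumours. The second Hoxa5 probe set gave the same direction with a smaller size, 239 ± 63.6 in tumours and 641 ± 155 in normal lungs (SD, n = 6 each), a difference of -1.37 ± 0.21 (adjusted p = 2.04e-04).

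Hoxb5, which acts with Hoxa5 in lung branching and alveolar formation in the mouse, had signals of 9.15, 34.4 and 58.5 (lowest, median, highest) in tumours and 420.4, 644 and 762 in normal lungs. The groups were widely separated, with a difference of -3.76 ± 0.29 (SE, adjusted p = 4.91e-07). Since all 6 tumour signals lay well below the array median, where the size of a ratio is uncertain, the normal-lung mean was also set against the tumour array median, which it exceeded 4.44 times. The opposite-strand transcript Hoxb5os was lower as well, at 70.1 ± 39.2 in tumours and 169 ± 52.6 in normal lungs (SD), with a difference of -1.24 ± 0.38 (SE, adjusted p = 0.0278), though its groups overlapped. Leaving out normal lung 2, 3, 5 or 6, or tumour 4, ended its call, with an adjusted p of up to 0.0646. The paralogue Hoxc5 was dim in both groups, with means of 26.8 in tumours and 35.3 in normal lungs and an adjusted p of 0.672.

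The remaining bright genes of the Hoxb cluster fell as well. Hoxb2, best known for its part in patterning the hindbrain, had signals of 154, 169 and 205 (lowest, median, highest) in tumours, against 486, 596 and 782 in normal lungs, a difference of -1.68 ± 0.15 (SE, n = 6 each, adjusted p = 1.45e-06). Its groups did not overlap, and the 6 tumours lay within a ratio of 1.33 of each other. Hoxb3 had signals of 23.8, 134 and 184 in tumours, against 294, 419.8 and 555 in normal lungs, a difference of -1.76 ± 0.34 (adjusted p = 0.00127). The low value was tumour 5, and without that array the difference was -1.43 (adjusted p = 2.15e-04). Hoxb4, a regulator of blood stem cell expansion, had signals of 48.3, 81.8 and 99.7 in tumours, against 181, 323 and 369 in normal lungs, a difference of -1.68 ± 0.23 (adjusted p = 5.94e-05). Hoxb6 had signals of 19.6, 64.2 and 105 in tumours, against 189, 252 and 339.6 in normal lungs, a difference of -1.77 ± 0.28 (adjusted p = 2.50e-04). For Hoxb3, Hoxb4 and Hoxb6 every tumour was likewise below every normal lung. The second probe sets of Hoxb3 and Hoxb4 fell too, with differences of -1.99 ± 0.30 and -1.60 ± 0.29 (adjusted p = 1.48e-04 and 8.73e-04).

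The 2 bright genes outside paralogue group 5 and the Hoxb cluster also fell, though not on all of their probe sets. Hoxa3, needed for thymus and parathyroid formation, had signals of 59.9, 80.6 and 154.5 (lowest, median, highest) in tumours, against 154.9, 220.4 and 313 in normal lungs, a difference of -1.13 ± 0.24 (SE, n = 6 each, adjusted p = 0.00293). The highest tumour and the lowest normal lung were almost level. Its 3 other probe sets did not pass the test, with differences of -0.45, -0.29 and 0.39 and adjusted p of 0.364, 0.427 and 0.550. Hoxc6 had signals of 46.9, 76.5 and 134 in tumours, against 79.0, 158 and 279.5 in normal lungs, a difference of -0.87 ± 0.29 (adjusted p = 0.0434). Its groups overlapped, with 3 tumours below the lowest normal lung. The Hoxc6 call was lost in 9 of the 12 fits that left out 1 array, all but those without normal lung 3, normal lung 6 or tumour 5, with an adjusted p of up to 0.0996. Its 2 other probe sets did not pass (-0.79 and -0.12, adjusted p = 0.0663 and 0.866).

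Of the 25 dim genes, 4 fell, beside 6.94% of all 6123 dim genes. Hoxa4, the neighbour of Hoxa5 in the cluster, had signals of 16.9, 24.6 and 53.0 in tumours, against 105, 137 and 167 in normal lungs, a difference of -1.81 ± 0.24 (SE, n = 6 each, adjusted p = 6.11e-05). Hoxa2, a determinant of the second pharyngeal arch, had signals of 40.3, 49.5 and 65.4 in tumours, against 67.4, 128 and 167 in normal lungs, a difference of -0.98 ± 0.24 (adjusted p = 0.00686). The groups did not overlap for either gene, and the second Hoxa4 probe set did not pass (-0.58, adjusted p = 0.137).

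For the other 2 dim genes that fell, single arrays decided the call. Hoxa7 had signals of 8.11, 10.04 and 17.3 in tumours, against 22.3, 24.7 and 148 in normal lungs, a difference of -1.17 ± 0.37 (SE, adjusted p = 0.0316). Normal lungs 1 and 5 had 148 and 105, and the other 4 normal lungs lay just above the tumours. Leaving out normal lung 1 or 5, or tumour 1, 4, 5 or 6, ended the Hoxa7 call, with an adjusted p of up to 0.0719. Hoxc4 had signals of 9.08, 44.0 and 94.0 in tumours, against 63.0, 106 and 122 in normal lungs, a difference of -1.17 ± 0.35 (adjusted p = 0.0228). Its groups overlapped, and the call was lost without tumour 4 (adjusted p = 0.0517).

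The other 21 genes did not pass the test, with differences between -0.81 and 0.39 and normal-lung means between 5.80 and 87.5. Among them Hoxd8 had the most negative difference, with means of 41.2 ± 23.4 in tumours and 84.2 ± 38.9 in normal lungs (SD), and -0.81 ± 0.34 (SE, adjusted p = 0.0966). Hoxa9 was at 87.6 ± 47.1 in tumours and 87.5 ± 46.7 in normal lungs, a difference of 0.01 ± 0.38 (adjusted p = 0.992). Hoxc9 had the most positive difference, 0.39 ± 0.30, at 31.1 ± 26.1 in tumours and 16.8 ± 5.34 in normal lungs. At such signals differences in RNA may not be detectable, so no absence of change is read from them. Probe sets shared by Hoxb8 and Hoxb7 and by Hoxd4 and Hoxd3 gave differences of 0.16, 0.25 and -0.24 and did not pass.

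By cluster, 5 of 9 Hoxa, 5 of 9 Hoxb, 2 of 7 Hoxc and 0 of 8 Hoxd genes fell, beside 17.5% of all genes and 6.94% of all dim genes. The median differences were -0.98 for Hoxa, -1.68 for Hoxb, -0.40 for Hoxc and -0.29 for Hoxd. At an unadjusted p under 0.05, 3 Hoxd genes, Hoxd1, Hoxd3 and Hoxd8, were lower. The share of all genes at that threshold was not taken, and nothing is read from this count. By paralogue number, 7 of 10 genes numbered 1 to 4 fell (median -1.15), 5 of 9 numbered 5 to 8 (median -0.87) and 0 of 14 numbered 9 to 13 (median -0.15), against the same shares. The genes that fell carried numbers 2 to 7, of which 15 were measured and 12 fell. In the Hoxb cluster all 5 genes numbered 2 to 6 fell. Both ranges were set from the genes that fell, so these counts are a description only. All 14 genes numbered 9 to 13 and all 8 Hoxd genes were dim in both groups, where a decrease may not be detectable. Differences between clusters or number classes were not tested, since neighbouring genes are not replicates.

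**Figure D2:**
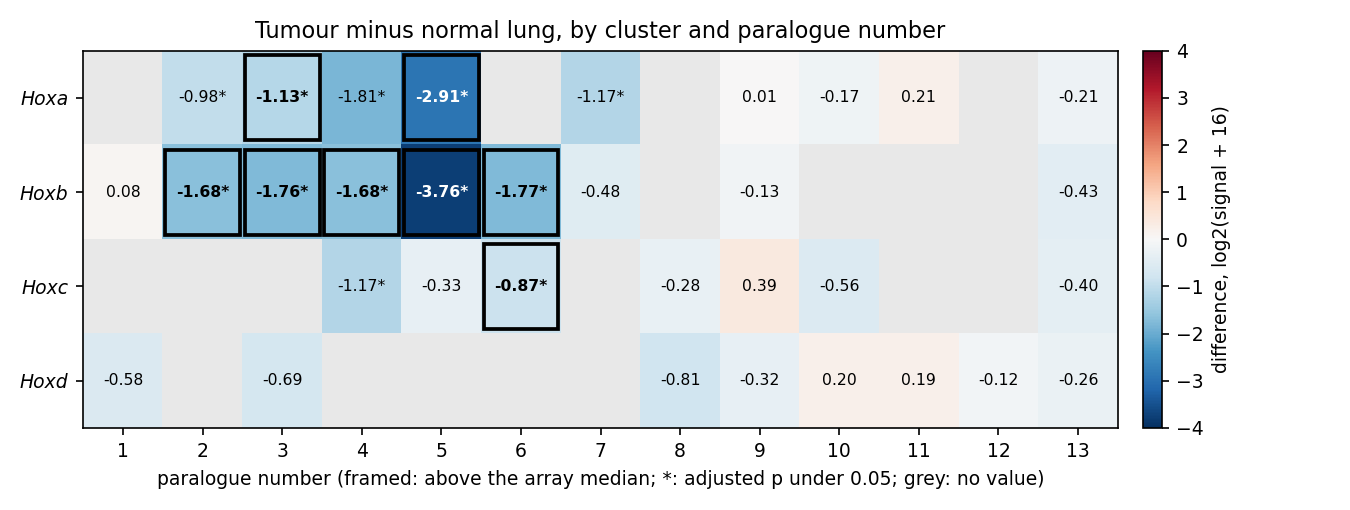
Difference of each measured Hox gene, tumour minus normal lung on the scale of log2(signal + 16), with clusters in rows and paralogue numbers 1 to 13 in columns. Frames mark bright genes, stars an adjusted p under 0.05 and grey cells genes with no value; the starred cells all lie at numbers 2 to 7, with the darkest at Hoxb5 (-3.76) and Hoxa5 (-2.91).

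Tumours differed from each other in how low each Hox gene was. The mean of the 8 bright genes relative to the mean of normal lungs was -1.59, -1.96, -2.21, -1.72, -2.40 and -1.78 in tumours 1 to 6, and -0.19, 0.29, -0.10, -0.24, 0.10 and 0.14 in normal lungs 1 to 6. Since 6 of the 8 genes counted as bright through normal lungs alone, the gap between the groups in this mean is partly fixed by that choice, and only the order among tumours is described here. Tumour 5 was the lowest of the tumours for 4 of the 8 genes and tumour 1 the highest for 4. The highest tumour signal was 7.72 times the lowest for Hoxb3, 6.39 times for Hoxb5 and 5.35 times for Hoxb6. The lowest signals of these 3 genes lay far below the array median, where the size of a ratio is uncertain. For Hoxa5 and Hoxb2, whose tumour means were above the median, the ratios were 2.76 and 1.33. Among normal lungs the ratios for the 8 genes ran between 1.61 for Hoxb2 and 3.54 for Hoxc6. The SD of log2(signal + 16) was larger among tumours than among normal lungs for 5 of the 8 genes. This is a smaller share than the 80.0% of all bright genes, so a larger spread among tumours is not particular to these Hox genes.

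Single tumours did not rank alike over the genes. Hoxb5 was at 58.5, 40.2, 11.0, 28.7, 9.15 and 54.9 in tumours 1 to 6, and Hoxa5 at 349, 207, 160.3, 442, 255 and 224. Tumour 4 was thus highest for Hoxa5 and near the middle for Hoxb5. It was lowest for Hoxb4, at 48.3, where the other 5 tumours lay between 76.2 and 99.7. Tumour 5, lowest for Hoxa3, Hoxb3, Hoxb5 and Hoxb6, was the highest tumour for Hoxc6, at 134.

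**Figure D3:**
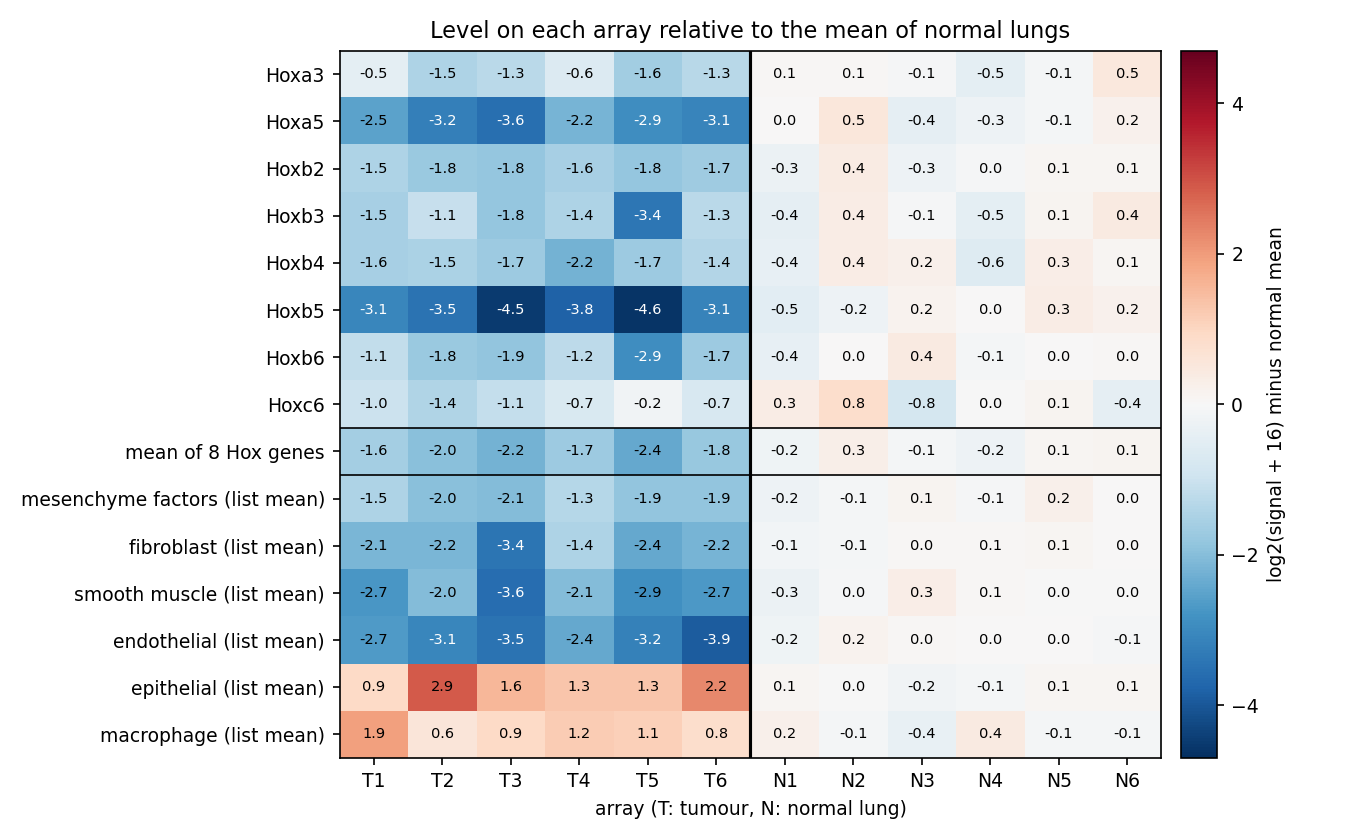
Level on each array relative to the mean of normal lungs, in units of log2(signal + 16), for the 8 bright Hox genes, their mean, and the means of 6 gene lists, with tumours T1 to T6 left of normal lungs N1 to N6. The mean of the 8 Hox genes lies between -2.40 and -1.59 in tumours and between -0.24 and 0.29 in normal lungs. As 6 of the 8 counted as bright through normal lungs alone, this gap is partly fixed by the choice of genes.

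Markers of several cell types also differed between the groups, where 17.5% of all 18193 genes fell and 12.2% rose. Of 12 fibroblast and interstitial markers 8 fell (median -1.93), and their summed signal ranged over 5264 to 14698 in tumours and 42814 to 56782 in normal lungs. All 7 smooth muscle markers fell (median -2.44), with sums of 2994.5 to 8337 in tumours and 15553 to 27803.5 in normal lungs. All 10 endothelial markers fell (median -3.18), with sums of 3515 to 10668 in tumours and 52162 to 70579 in normal lungs. Examples are Scube2 at -4.35 ± 0.29, Myh11, the smooth muscle myosin, at -3.86 ± 0.22, and Acvrl1, an endothelial receptor, at -3.63 ± 0.20. Of 7 epithelial markers 6 rose (median 1.67), with sums of 36984 to 121482 in tumours and 19227 to 22140.3 in normal lungs, led by the adhesion protein Epcam at 2.30 ± 0.18. Of 6 macrophage markers 3 rose and 1 fell (median 1.24), led by Pparg at 2.46 ± 0.31, with sums of 10331 to 26304 in tumours and 8249.8 to 12767 in normal lungs. All 5 ciliated, 4 of 6 mesothelial, 4 of 6 lymphocyte, 2 of 3 erythroid and 2 of 3 adipocyte markers fell. Also lower were 2 of 8 neutrophil and myeloid, 1 of 5 liver, 1 of 6 skeletal muscle and 0 of 5 thymus markers. These last counts lie near or below the 22.8% of all bright genes that fell, and nothing particular is read from them. Of 5 type II markers 3 rose, of 8 gastric and intestinal markers 4 rose, and of 4 sex-linked genes 3 rose and 1 fell. No marker had a signal of 0 on any array. The part of cell makeup in the Hox differences was not tested.

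The fibroblast list mean relative to normal lungs was -2.13, -2.15, -3.44, -1.43, -2.40 and -2.18 in tumours 1 to 6. Tumour 3 was lowest for these markers and tumour 5 for the mean of the bright Hox genes. Tumours 1 and 4 were the least reduced for both means. Across tumours these are 6 values of genes measured on the same arrays, given as a description.

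Transcription factors of lung mesenchyme fell in 11 of 15 cases (median -1.67), beside 17.5% of all genes. Foxf1, a Hedgehog target needed for lung vessels, was at 443 ± 277 in tumours and 6037 ± 661 in normal lungs (SD, n = 6 each), a difference of -3.90 ± 0.27 (SE, limma adjusted p = 2.29e-07). The T-box factors Tbx3, Tbx2 and Tbx4, which shape lung mesenchyme and branching, gave -3.53 ± 0.22, -2.68 ± 0.18 and -2.43 ± 0.18. In all 4 genes no tumour reached a normal lung.

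Among 10 homeodomain partners of Hox proteins 5 fell and 1 rose (median -0.54), beside 17.5% and 12.2% of all genes. Meis1, the Hox cofactor of the Meis family, had signals of 65.0, 111 and 192 (lowest, median, highest) in tumours, against 779, 1033 and 1211 in normal lungs, a difference of -2.94 ± 0.22 (SE, n = 6 each, limma adjusted p = 3.14e-07). Pknox2, a related factor, was at 96.4 ± 68.9 in tumours and 1076 ± 250 in normal lungs (SD), a difference of -3.50 ± 0.36 (adjusted p = 5.31e-06), and Meis2 gave -1.33 ± 0.28 (adjusted p = 0.00236). For these 3 genes all tumours were below all normal lungs. Tgif1, a repressor of the same homeodomain class, moved the other way, with signals of 849, 1689 and 3804 in tumours, against 314, 393 and 449 in normal lungs, a difference of 2.21 ± 0.26 (adjusted p = 2.14e-05).

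Of 23 Polycomb and trithorax genes 4 fell and 4 rose (median -0.01), shares close to the 17.5% of all genes that fell and the 12.2% that rose, and nothing particular to the list is read from them. Ezh2, the main histone methyltransferase of Polycomb repression in dividing cells, was at 949.6 ± 447 in tumours and 299 ± 39.9 in normal lungs (SD), a difference of 1.52 ± 0.22 (SE, adjusted p = 1.36e-04). Its relative Ezh1 fell (-0.55 ± 0.10, adjusted p = 9.64e-04), a call lost with its probe set of highest variance (adjusted p = 0.255). Kmt2a, the trithorax methyltransferase that maintains Hox expression, was at 829 ± 143 in tumours and 1706 ± 358 in normal lungs, a difference of -1.02 ± 0.15 (adjusted p = 1.62e-04). Ash2l, a subunit of the same kind of complex, rose (0.86 ± 0.17, adjusted p = 0.00173), a call lost with the mean of all its probe sets (adjusted p = 0.0910) and with its probe set of highest variance.

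Of 17 retinoic acid pathway genes 5 fell (median -0.26), beside 17.5% of all genes and 22.8% of all bright genes, and nothing particular to the list is read from that count. Rarb, a receptor that is itself induced by retinoic acid, was at 137 ± 54.1 in tumours and 443 ± 90.6 in normal lungs (SD), a difference of -1.65 ± 0.25 (SE, adjusted p = 1.53e-04). Aldh1a1, which makes retinoic acid, was at 3595 ± 2606 in tumours and 19708 ± 2023 in normal lungs (-2.83 ± 0.43, adjusted p = 1.94e-04). Cyp26b1, which degrades it, was at 201 ± 108 in tumours and 999 ± 350 in normal lungs (-2.30 ± 0.37, adjusted p = 2.74e-04). For all 3 the groups did not overlap. Rarg was lower by less (-0.46 ± 0.15, adjusted p = 0.0325), and its call was lost in 7 of the 12 fits that left out 1 array, and with quantile normalization and median centring (adjusted p = 0.0510 and 0.249).

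**Figure D4:**
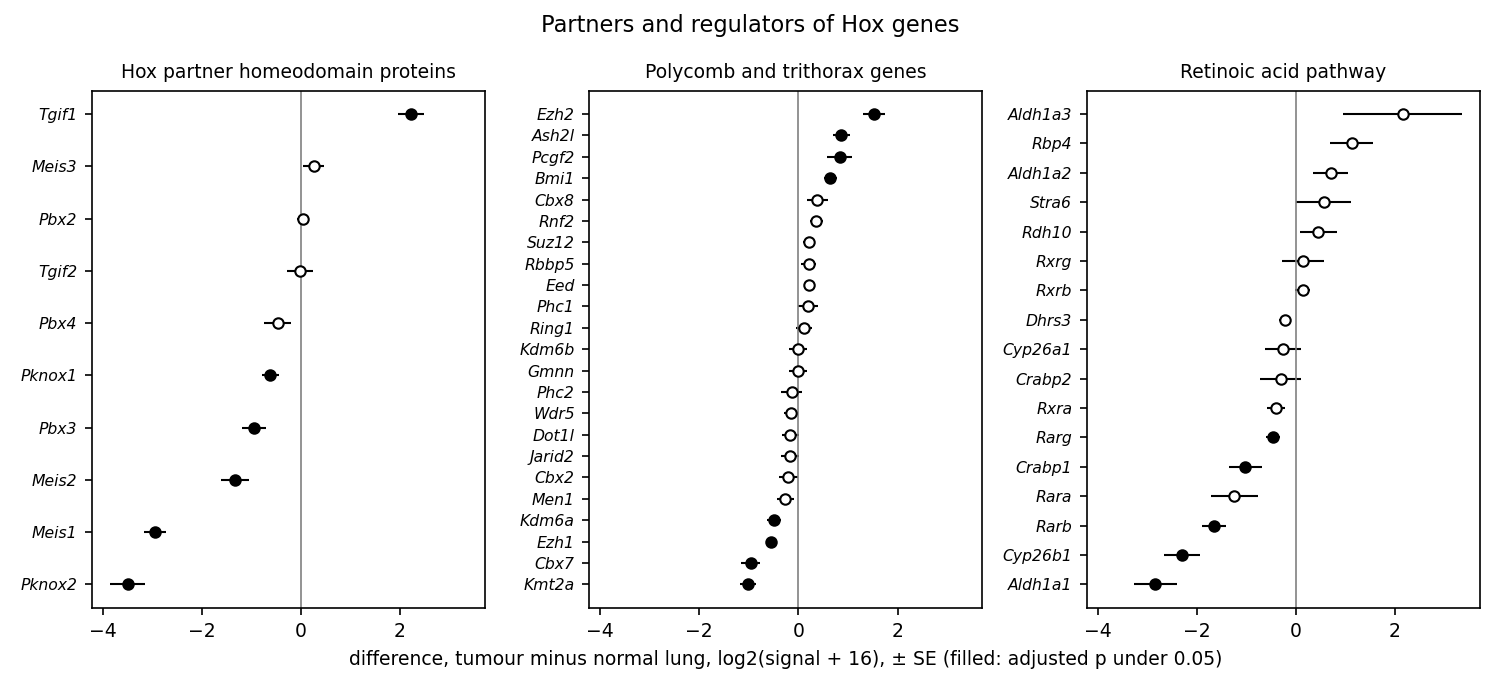
Difference, tumour minus normal lung on the scale of log2(signal + 16), ± SE, for 10 homeodomain partners, 23 Polycomb and trithorax genes and 17 retinoic acid pathway genes. Filled points have an adjusted p under 0.05; Tgif1 (2.21) and Pknox2 (-3.50) mark the ends of the partner list, and the Polycomb and trithorax genes lie on both sides of 0.

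Of 18 measured genes that flank the clusters, 3 fell and 6 rose (median 0.03), beside 17.5% and 12.2% of all genes. Mtx2, beside Hoxd, was at 1410 ± 205 in tumours and 776 ± 73.2 in normal lungs (0.84 ± 0.12, SE, adjusted p = 8.02e-05), and Hibadh, beside Hoxa, at 8374 ± 3251 in tumours and 3488 ± 197 in normal lungs (1.18 ± 0.19, adjusted p = 2.75e-04). Snx10, on the Hoxa side, rose by 0.98 ± 0.18. Ttll6, on the Hoxb side, fell to 107 ± 58.5 in tumours, against 365 ± 44.3 in normal lungs (-1.81 ± 0.33, adjusted p = 8.17e-04). None of the 8 ParaHox and Evx homeobox genes passed the limma test in either direction, and 0 did at an unadjusted p under 0.05. All 8 were dim in both groups. Cdx2 was nearest (-1.01 ± 0.48, unadjusted p = 0.0501), with means of 25.6 in tumours and 59.0 in normal lungs. Without tumour 2, its highest tumour, it passed as lower (-1.39, adjusted p = 0.0177). At such signals no decrease of Cdx2 is read from that fit.

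Facts of the arrays that touch these values were as follows. Array medians were 126 to 149.8 in tumours and 151 to 164 in normal lungs. Pairwise correlations of log2 values were 0.907 to 0.954 among tumours and 0.932 to 0.966 among normal lungs. The Y-linked transcript Eif2s3y exceeded the array median in 4 tumours, at 740.5 or more, and in 0 normal lungs, with at most 27.4 on the other arrays. Without those 4 tumours, or with Eif2s3y as a covariate, 8 Hox genes fell. The first of these fits kept few tumours, and in the second Eif2s3y varied chiefly among tumours. Sex and group therefore cannot be fully told apart. The summed signal of 5 liver markers ranged over 81.8 to 5904 in tumours and 197 to 23355 in normal lungs. Without normal lungs 2 and 4, in which liver transcripts were seen, 10 Hox genes fell. The neutrophil and myeloid list mean, relative to normal lungs, was 3.27 in normal lung 1 and between -1.04 and 0.35 in the other normal lungs. Hoxa7 was highest on that same array, at 148, and a link between the 2 was not tested. Sftpc, the type II cell marker, had a lowest, median and highest signal of 31265, 35144 and 47149 in tumours and 34357, 52362 and 55875 in normal lungs.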

How the data were processed

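The authors deposited 1 linear signal intensity for each of 45101 probe sets, computed with MAS5, per the submitters' processing notes. The version of MAS5 is not given in the sources used here. The 64 array controls were dropped. Sample titles gave the groups and replicate numbers. Symbols came from the platform annotation (34945 probe sets with 1 symbol, 932 with several, 9160 with none); all 48 single-symbol Hox probe sets matched mouse RefSeq by Entrez identifier.

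The fit used log2(signal + 16), an offset that makes differences at low signal smaller. It ran in R 4.3.3 with lmFit and trended eBayes of limma 3.58.1 on 6 tumours and 6 normal lungs, two-sided, with Benjamini-Hochberg adjustment over 45037 probe sets and a threshold of 0.05. The deposited scaling was kept. Detection calls were not used here, and the number of arrays limits precision. The fit was tested on simulated data. Python 3.11.15, numpy 2.4.6, pandas 2.3.3 and matplotlib 3.10.9 made tables and figures. Promoter sequences came from RefSeq, GRCm38.p6.

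Named genes were all bright Hox genes, dim Hox genes past the threshold or nearest the brightness limit, and up to 4 members of each list by adjusted p. The members, the 7 companion lists and the 17 marker lists were chosen with earlier results of these data known. Other probe sets, Hoxc5, Hoxa9, Hoxc9, Hoxd8 and Sftpc were chosen after their values were seen. Alternatives changed the offset, scaling, dim filter, trend, array weights, replicate block, probe set per gene, arrays used and a covariate.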

Additional observations from a re-analysis of the deposited data

Results flagged for a closer look

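In 6 of 88 gene-and-group pairs, 1 array stood apart from the other 5 by Dixon's test at the 95% level, which chance gives in about 1 of 20 pairs. Hoxb3 was lowest in tumour 5, at 23.8. Cdx2, a ParaHox gene, was highest in tumour 2, at 103.6, and Snx10 was lowest in tumour 2, at 1013. Among normal lungs, Ash2l was lowest in normal lung 1, at 584.6, as was Tbx3, at 1171, and Ttll6 was lowest in normal lung 6, at 279.975.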

How the results depend on the processing

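Each value was recomputed with 1 choice changed. The count of Hox genes lower in tumours was 12, and 9 to 12 without 1 array and 8 to 12 under the other 14 settings; 0 rose under any setting. For bright genes these ranges were 7 to 8 and 6 to 8, around 8. Hoxa4, Hoxa5, Hoxb2, Hoxb3, Hoxb4, Hoxb5 and Hoxb6 kept their call under every alternative run. Hoxa2 missed the threshold without the 4 tumours with Eif2s3y (adjusted p = 0.0583). Hoxa3 missed it with Eif2s3y as a covariate (0.0511) and with the mean of all its probe sets (-0.37, 0.295), and with its probe set of highest variance the sign reversed (0.39, 0.550); that probe set is a dim one, and the cause was not tested. Gsx1, not past the threshold, reversed to 0.0868 without the tumours with Eif2s3y. Hoxa7, Hoxc4 and Hoxc6 missed it under several settings, median centring included. All 12 Hox genes kept their sign under quantile normalization and median centring, which moved the median difference over all probe sets to 0.05 and 0.13, against -0.06 in the deposited scaling, and the probe sets called higher and lower to 5638 and 5505 and to 7431 and 4566, against 4529 and 6279. Same-numbered samples did not deviate together (correlations -0.02 to 0.02), which gives no sign of pairing by number but cannot exclude it. With a replicate block 10 Hox genes were lower, and Cdx2, dim in both groups, passed (limma adjusted p = 0.0496). The probe set of highest mean log2 value, an alternative chosen after seeing the data, gave 11. Low signal over background limits the dim genes.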

Other observations

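Values of 2 genes, chosen after they were seen, stood out in tumour 2 among transcripts related to Hox regulation. Pdx1, a ParaHox gene of pancreas and foregut, had signals of 2.86, 586, 4.65, 1.44, 48.2 and 39.3 in tumours 1 to 6 and between 3.70 and 55.0 in normal lungs. Aldh1a3, which makes retinoic acid, had signals of 27.2, 11782, 8.60, 28.9, 15.9 and 371 in tumours 1 to 6 and between 5.67 and 65.0 in normal lungs. Neither passed the limma test between the groups (adjusted p = 0.911 for Pdx1 and 0.223 for Aldh1a3).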
